A study of Mus musculus with 51 samples.

Results

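Chemokines and their receptors, the secreted signals and surface proteins that direct the movement of blood cells, were described in blood-forming cells of Mll-AF9 knock-in and wild-type mice. Members were the genes whose symbol is Ccl, Cxcl, Ccr or Cxcr with a number, together with Xcl1, Xcr1, Cx3cl1, Cx3cr1, Ccrl2 and Ackr1 to Ackr4. Of the 18193 genes represented on the arrays, 54 were members, each read from its brightest probe set. They comprised 32 ligands, 17 receptors and 5 atypical or decoy receptors, which bind a chemoattractant without the usual G-protein signal.

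The groups were, each as Mll-AF9 and then wild type, granulocyte-macrophage progenitors (GMP, 4 and 5 replicates), common myeloid progenitors (CMP, 4 and 5), common lymphoid progenitors (CLP, 7 and 8) and haematopoietic stem cells (HSC, 5 and 5). Mll-AF9 is a leukaemia fusion gene, and a knock-in places it under the control of the animal's own Mll gene in every cell that uses that gene. All cells were sorted from whole bone marrow into RNA extraction buffer and their RNA was amplified before labelling, and the stated aim was to find genes that differ between Mll-AF9 cells and wild-type cells of the same type. The sources used here do not state the sort gates, nor how old the mice were, their sex or whether they carried 1 or 2 copies of the knock-in. Whether each replicate is a separate mouse is not stated either. The p-values therefore rest on the spread among these samples, part of which may be technical.

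Chemokines are small secreted proteins that form gradients on cell surfaces and matrix. Cells read them through receptors that span the membrane and couple to inhibitory G proteins, and most inflammatory receptors accept several ligands. In bone marrow the stromal ligand Cxcl12 holds stem cells and progenitors in place through Cxcr4, Ccr2 and Cxcr2 release monocytes and neutrophils, and Ccr9 guides lymphoid progenitors to the thymus.

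Several facts of the samples touch the results. For 8 samples titled CLP, including the 7 from Mll-AF9 mice, the source field names CMP instead, and the title was followed. The CLP marker list (Il7r, Flt3, Dntt, Rag1, Rag2, Ebf1 and Vpreb1) had a mean of 7.09 in Mll-AF9 CLP. It was 8.12 over all wild-type CLP replicates, against 4.82 in Mll-AF9 CMP and 4.70 in wild-type CMP. In HSC it was 5.47 in Mll-AF9 and 6.01 in wild type. The HSC marker list did not part CLP from HSC as widely. It was 8.44 in Mll-AF9 CLP and 8.00 in wild-type CLP, against 9.11 in Mll-AF9 HSC and 8.31 in wild-type HSC. The mean of 3 Y-linked genes (Kdm5d, Eif2s3y and Uty) was low in all 20 Mll-AF9 replicates (2.21 to 2.72) and mixed in each wild-type group (up to 7.33), so the sex of the mice overlaps with genotype. The CMP values were deposited with more decimals and may have been processed apart, which touches every comparison of CMP with another population. Levels are log2 RMA intensities, and 4.46, the 95th percentile of 112 sensory receptor and keratin-associated genes not used by blood cells, was taken as background. An intensity depends on the probe set, so levels were compared between samples and not between genes.

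At least 1 group mean lay above background for 31 of the 54 members, 18 ligands, 9 receptors and 4 atypical or decoy receptors, and 13 members were above it in all 8 groups. By group the number was 20 in Mll-AF9 GMP and 22 in wild-type GMP, 15 and 16 in CMP, 21 and 21 in CLP, and 15 and 17 in HSC. Of all 18193 genes, 11839 had at least 1 group mean above background. The share of all genes above it was 59.1% in Mll-AF9 GMP and 59.6% in wild-type GMP, and 56.4% and 56.3% in CMP. It was 59.3% and 57.9% in CLP, and 58.1% and 57.7% in HSC. The other 23 members were below background in every group. Among them were the monocyte attractants Ccl2, Ccl7, Ccl8 and Ccl12, the eosinophil attractant Ccl11, the neutrophil attractants Cxcl3 and Cxcl5 with their receptor Cxcr2, the interferon-induced Cxcl11, and Ccl1, Ccl20, Ccl28, Cxcl14, Cxcl15 and Xcl1. The receptors among them were Ccr3 of eosinophils, Ccr4, Ccr8, Ccr7 and Cxcr5 of mature lymphocytes, Xcr1 of cross-presenting dendritic cells, Ccr1l1, a close relative of Ccr1, and the Cxcl12 scavenger Ackr3. Members above it in some group that are described only briefly were Ackr2, Ackr4, Ccl22, Ccr6, Cx3cl1 and Cxcl17. A level below background is a limit of the probe set and does not show that the gene was silent.

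**Figure D1:**
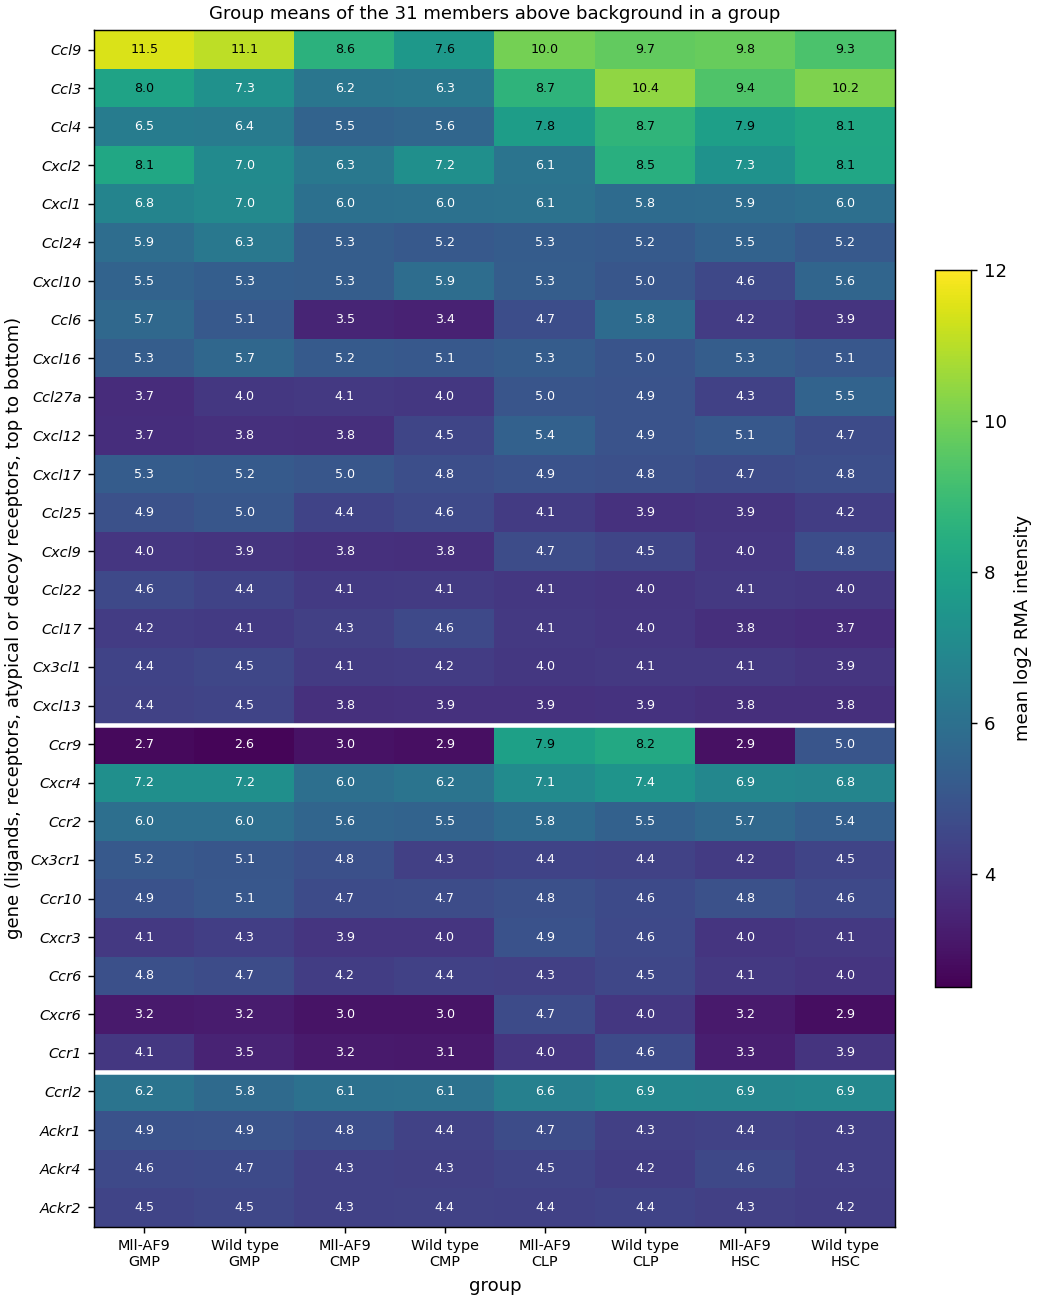
Mean log2 RMA intensity (colour and printed value) of the 31 members above background in at least 1 group, in the 8 groups from left to right. White lines part ligands, receptors and atypical or decoy receptors. Ccl9 is highest in GMP, Ccl3 and Ccl4 are highest in CLP and HSC, and Ccr9 stands out in CLP.

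The ligands with the widest range between populations were the inflammatory CC chemokines of chromosome 11. Ccl3, an inflammatory chemokine also known as an inhibitor of stem cell division, averaged 8.00 ± 0.18 in Mll-AF9 GMP and 7.30 ± 0.39 in wild-type GMP (SD, n = 4 and 5), 6.24 ± 0.19 and 6.31 ± 0.65 in CMP (n = 4 and 5), 8.69 ± 2.13 and 10.42 ± 1.55 in CLP (n = 7 and 8), and 9.37 ± 0.57 and 10.17 ± 1.18 in HSC (n = 5 and 5). Its neighbour Ccl4, which acts on many of the same cells, averaged 6.49 ± 0.46 in Mll-AF9 GMP and 6.44 ± 0.26 in wild-type GMP, 5.52 ± 0.20 and 5.65 ± 0.22 in CMP, 7.78 ± 1.24 and 8.73 ± 1.74 in CLP, and 7.85 ± 0.23 and 8.14 ± 1.00 in HSC. Ccl3 and Ccl4 therefore shared an order of populations in wild type, with CLP and HSC first, GMP next and CMP last.

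Ccl9, a myeloid CC chemokine that acts through Ccr1, had another order. It averaged 11.45 ± 0.16 in Mll-AF9 GMP and 11.06 ± 0.41 in wild-type GMP, 8.61 ± 0.25 and 7.58 ± 0.51 in CMP, 10.02 ± 0.57 and 9.72 ± 1.12 in CLP, and 9.78 ± 0.44 and 9.30 ± 0.73 in HSC. Its mean was thus higher in Mll-AF9 in each of the 4 populations, by amounts given with their tests below. Ccl6, a related myeloid chemokine from the same cluster, was above background in GMP and CLP only.

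Cxcl2, an early-response neutrophil attractant, varied widely within groups. It averaged 8.14 ± 0.79 in Mll-AF9 GMP and 7.03 ± 0.62 in wild-type GMP, 6.30 ± 0.50 and 7.22 ± 0.55 in CMP, 6.14 ± 1.69 and 8.48 ± 1.37 in CLP, and 7.34 ± 1.02 and 8.11 ± 2.71 in HSC. The wild-type HSC replicates had 10.41, 10.27, 7.78, 8.37 and 3.73, so 1 of them was below background and 2 were among the highest of all 43 replicates. Among receptors, Ccr9 was near the floor in GMP and CMP of both genotypes (group means 2.65 to 2.96) and reached 7.90 ± 1.29 in Mll-AF9 CLP and 8.24 ± 1.20 in wild-type CLP. Cxcr4 was above background in every replicate, with group means between 5.97 (Mll-AF9 CMP) and 7.42 (wild-type CLP).

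**Figure D2:**
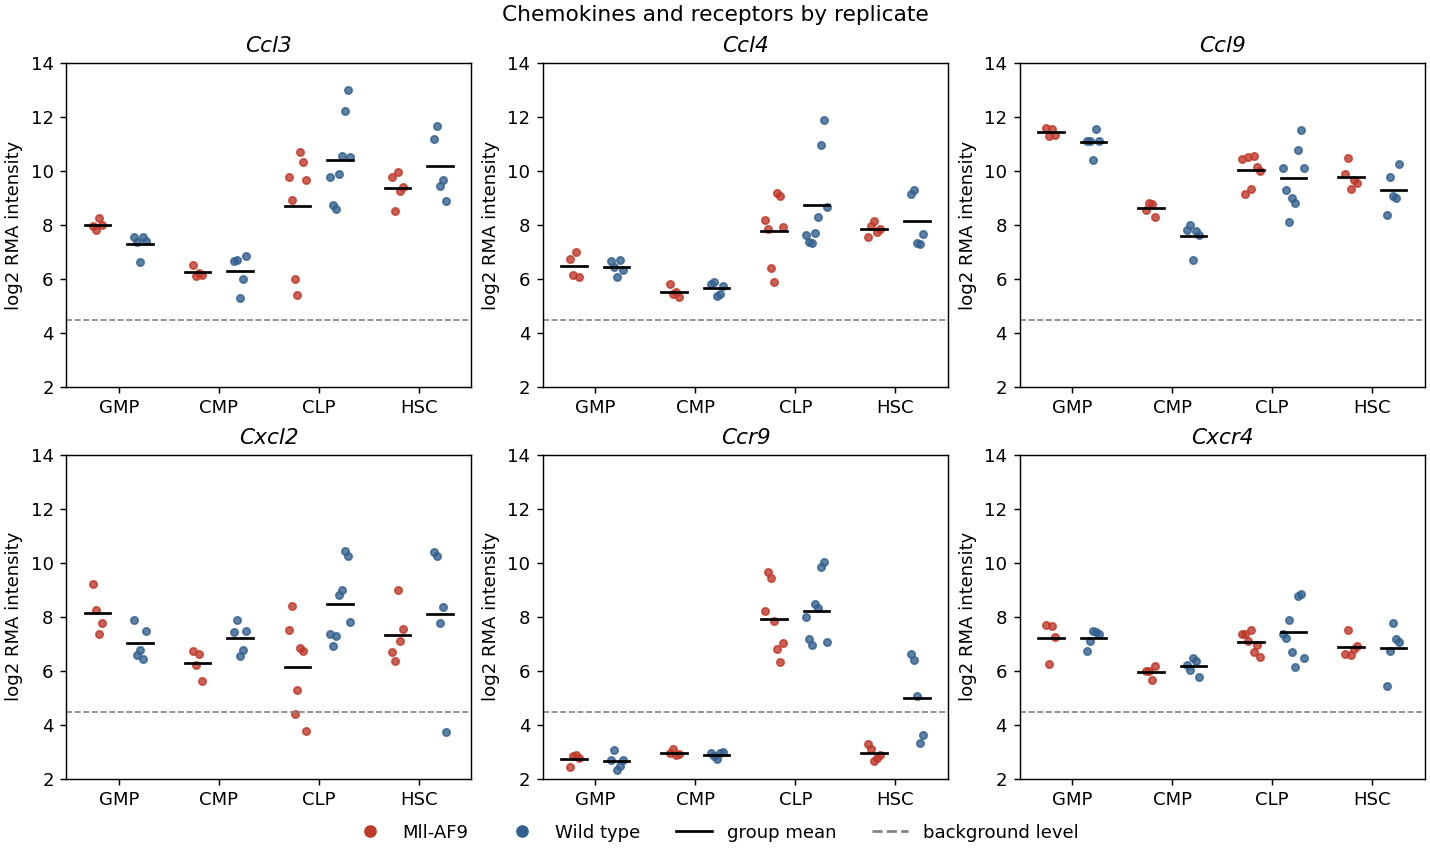
Log2 RMA intensity of 6 members in every replicate (points), with the group mean (black bar) and the background level (dashed line), by population with Mll-AF9 left of wild type. Ccl3, Ccl4 and Cxcl2 spread widely in CLP and HSC, Ccl9 is higher in all 4 Mll-AF9 CMP replicates than in the 5 wild-type ones, and Ccr9 is high in CLP and in some wild-type HSC replicates.

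Upstream sequence is shown for Ccl3, Ccl9, Cxcl2 and Ccr9, whose levels are described in all 4 populations and whose genotype differences are given below. RefSeq sequence (build GRCm38.p6) was found for 42 members, and the 250 bases before each start are printed 5′ to 3′ on the gene's strand. Capitals mark letters matching 1 of 6 motifs, searched on both strands. The NF-kB motif was GGGA and TCC with any 3 bases between them, and the PU.1 motif was GAGGAA. The C/EBP motif was TTGC and AA with any 2 bases between them. The AP-1 motif was TGA and TCA with any 1 base between them. The TATA motif was TATAAA and the E-box was CAGGTG. Ccl3 lies at chr11:83649379-83649628 (minus strand), Ccl9 at chr11:83578637-83578886 (minus strand), Cxcl2 at chr5:90903649-90903898 (plus strand) and Ccr9 at chr9:123766961-123767210 (plus strand), coordinates being those of the printed stretch.
Ccl3: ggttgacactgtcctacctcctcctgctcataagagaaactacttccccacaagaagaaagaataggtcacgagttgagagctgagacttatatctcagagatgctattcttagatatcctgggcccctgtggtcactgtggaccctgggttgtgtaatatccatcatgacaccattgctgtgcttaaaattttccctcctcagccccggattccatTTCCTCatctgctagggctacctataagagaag
Ccl9: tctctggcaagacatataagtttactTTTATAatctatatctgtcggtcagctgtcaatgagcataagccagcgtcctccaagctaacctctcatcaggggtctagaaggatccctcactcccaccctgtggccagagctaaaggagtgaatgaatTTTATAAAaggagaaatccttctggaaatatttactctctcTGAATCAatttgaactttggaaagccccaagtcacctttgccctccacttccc
Cxcl2: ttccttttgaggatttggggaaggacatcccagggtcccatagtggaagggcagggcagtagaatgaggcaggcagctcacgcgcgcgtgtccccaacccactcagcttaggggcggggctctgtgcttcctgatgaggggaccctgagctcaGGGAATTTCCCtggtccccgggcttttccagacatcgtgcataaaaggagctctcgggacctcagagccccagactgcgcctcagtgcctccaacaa
Ccr9: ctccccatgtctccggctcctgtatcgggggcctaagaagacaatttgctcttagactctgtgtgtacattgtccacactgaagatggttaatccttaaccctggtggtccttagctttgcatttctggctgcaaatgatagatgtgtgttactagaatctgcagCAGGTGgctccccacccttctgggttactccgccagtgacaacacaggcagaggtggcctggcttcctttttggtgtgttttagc
Ccl3 held 1 PU.1 match, on the opposite strand, 33 to 28 bases before the start. Ccl9 held 1 AP-1 match at 53 to 47 bases and 3 TATA matches, 2 of which overlap. Cxcl2 held 2 overlapping NF-kB matches at 97 to 87 bases, and Ccr9 held 1 E-box match at 85 to 80 bases. The NF-kB motif stood in any upstream sequence of 9 of the 42 members (21.4%) and in 3.86% of 32851 single upstream sequences of the same length. The members were Ccl1, Ccl22, Ccr1, Ccr3, Ccrl2, Cxcl1, Cxcl2, Cxcl3 and Cxcl10. The TATA motif stood in 14 (33.3%) against 12.4%, the PU.1 motif in 12 (28.6%) against 23.3%, the E-box in 9 (21.4%) against 17.2%, the AP-1 motif in 5 (11.9%) against 6.75%, and the C/EBP motif in 3 (7.14%) against 9.56%. For each motif the members were counted as genes and the other share as single sequences, so a member with more than 1 sequence had more chances to match. Such matches describe letters and are not shown to be bound.

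The first question was whether Mll-AF9 cells and wild-type cells of 1 population differ in these genes. Genes were called at a limma adjusted p under 0.05, with Benjamini-Hochberg adjustment over all 18193 genes. No member was called in any of the 4 populations, where the share of all genes called was 0.264% (GMP), 0.418% (CMP), 0.346% (CLP) and 0.0495% (HSC). At limma's unadjusted p under 0.05 there were 7 members in GMP (5 higher), 9 in CMP (5 higher), 4 in CLP (2 higher) and 4 in HSC (none higher). Over all genes that share was 9.63% for GMP, 6.75% for CMP, 9.29% for CLP and 6.38% for HSC. The 54 members had a median difference of 0.01 for GMP, -0.01 for CMP, 0.06 for CLP and 0.01 for HSC, and all genes had medians of -0.02, 0.00, 0.06 and 0.01 in that order. The members described next had the smallest p-values among those above background in some group.

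These are sorted bulk samples, in which fewer cells of a type and less RNA per cell cannot be told apart. In CMP, Ccl9 had the smallest p. It was 8.56, 8.82, 8.78 and 8.29 in Mll-AF9 CMP, against 7.80, 7.99, 6.70, 7.79 and 7.61 in wild-type CMP. All Mll-AF9 values lay above all wild-type values, and the difference of 1.03 ± 0.22 (SE, 2.05-fold, limma adjusted p = 0.0774) did not pass the threshold. It passed without wild-type CMP replicate 3, the lowest, at a smaller difference of 0.81 (limma adjusted p = 0.045). It also passed in 3 other settings, among them a fit that counted repeat CMP runs almost as separate samples. In the other populations Ccl9 differed by 0.39 ± 0.18 in GMP, 0.30 ± 0.40 in CLP and 0.48 ± 0.32 in HSC (SE, limma adjusted p = 0.509, 0.832 and 0.818), each higher in Mll-AF9. The HSC marker list also lay apart, at 6.45 to 6.98 in Mll-AF9 CMP replicates and 5.01 to 5.74 in wild-type CMP replicates, and Ccl9 averaged more in HSC than in CMP in both genotypes. Of its 5 genes Mecom differed most (8.22 in Mll-AF9 CMP, 4.30 in wild-type CMP) and Procr least (4.53 and 4.44). The GMP marker list was 7.01 to 8.38 in Mll-AF9 CMP replicates and 7.44 to 8.64 in wild-type CMP replicates. The part of either list in the CMP results was not tested.

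Cxcl12 was 4.06, 3.56, 3.84 and 3.61 in Mll-AF9 CMP, against 4.28, 4.45, 4.45, 3.89 and 5.40 in wild-type CMP. Only the fifth wild-type replicate stood clearly above background, and the difference was -0.73 ± 0.23 (SE, limma adjusted p = 0.335). That replicate also had the highest stroma and endothelium list of the CMP samples (4.47, Cxcl12 itself left out, against 3.83 to 4.04 in the other 4). The list averaged 4.07 in wild-type CMP, below background, with 3 of 11 genes above it. The part of such cells in the result was not tested. Cx3cr1, the fractalkine receptor of monocytes, was 4.74, 5.37, 4.51 and 4.70 in Mll-AF9 CMP, against 4.57, 4.39, 3.97, 4.28 and 4.32 in wild-type CMP. The groups overlapped, with a difference of 0.52 ± 0.17 (SE, limma adjusted p = 0.341). Ackr1, which binds many chemokines without signalling, was 4.41, 5.16, 4.69 and 4.76 in Mll-AF9 CMP, against 4.38, 4.53, 4.37, 4.34 and 4.31 in wild-type CMP. The difference was 0.37 ± 0.14 (SE, limma adjusted p = 0.538). Cxcl2 was 6.74, 6.20, 6.61 and 5.63 in Mll-AF9 CMP, against 7.42, 7.88, 6.53, 6.77 and 7.48 in wild-type CMP. It differed by -0.92 ± 0.27 (SE, limma adjusted p = 0.282), with the groups overlapping, in the opposite direction to GMP below.

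In GMP, Ccl3 was 7.96, 7.80, 8.24 and 7.98 in Mll-AF9 cells, against 7.55, 7.35, 6.62, 7.56 and 7.40 in wild-type cells. The groups did not overlap, and the difference was 0.70 ± 0.21 (SE, 1.62-fold, limma adjusted p = 0.266). The HSC marker list lay apart here too, at 5.72 to 6.05 in Mll-AF9 GMP and 4.63 to 5.12 in wild-type GMP, and Ccl3 was higher in HSC than in GMP. The part of that list in the GMP results was not tested. Ccr1, the receptor of Ccl3, Ccl6 and Ccl9, was 4.20, 3.98, 3.76 and 4.26 in Mll-AF9 GMP, against 3.69, 3.35, 3.42, 3.32 and 3.54 in wild-type GMP. These groups did not overlap either (0.59 ± 0.14, SE, limma adjusted p = 0.14), but every value lay below background. Ccl6 was 5.70, 5.12, 5.92 and 6.06 in Mll-AF9 GMP, against 4.66, 5.10, 5.22, 4.98 and 5.73 in wild-type GMP. The difference was 0.56 ± 0.23 (SE, limma adjusted p = 0.448), and a second probe set of Ccl6, also above background, gave 0.22 ± 0.22 (SE). The monocyte and macrophage list was 6.30 to 6.50 in Mll-AF9 GMP and 6.23 to 6.31 in wild-type GMP. Cxcl2 was 9.20, 8.25, 7.35 and 7.77 in Mll-AF9 GMP, against 7.88, 6.59, 6.77, 6.42 and 7.48 in wild-type GMP, with a difference of 1.11 ± 0.35 (SE, limma adjusted p = 0.296).

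In CLP, Cxcl2 had the smallest p of the members above background. It had a lowest, median and highest value of 3.77, 6.75 and 8.39 in Mll-AF9 CLP, against 6.92, 8.30 and 10.46 in wild-type CLP. The difference was -2.34 ± 0.66 (SE, limma adjusted p = 0.213), and the groups overlapped. Mll-AF9 CLP replicates 3 and 7 were below background for Cxcl2 (4.40 and 3.77), and wild-type CLP replicates 6 and 7 had the highest values (10.46 and 10.27). Without those 2 wild-type replicates the difference was -1.72 (limma adjusted p = 0.353), a setting chosen after the data were seen. With the 3′ minus 5′ signal of the array's control probe sets, a measure of RNA quality, as a covariate, it was -1.76 (limma adjusted p = 0.666). That measure was 3.68 to 4.93 in Mll-AF9 CLP and 3.36 to 3.91 in wild-type CLP. The mature neutrophil list was 9.06 and 10.51 in Mll-AF9 CLP replicates 1 and 2, whose Cxcl2 was highest in that group (7.51 and 8.39). In wild-type CLP it was 9.61 and 6.87 in replicates 6 and 7. The list averaged 7.53 in Mll-AF9 CLP and 5.89 in wild-type CLP, the opposite direction to Cxcl2. The part of such cells in the Cxcl2 values was not tested.

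Ccl3 in CLP had a lowest, median and highest value of 5.40, 9.66 and 10.72 in Mll-AF9 cells, against 8.60, 10.20 and 13.001 in wild-type cells. The difference of -1.73 ± 0.79 (SE, limma adjusted p = 0.515) rested on both tails. Mll-AF9 replicates 3 and 4 had 5.99 and 5.40, and the other 5 had 8.93 to 10.72. Ccl4 was lowest in the same 2 Mll-AF9 replicates (6.39 and 5.88, against 7.86 to 9.17 in the others). They also had the highest list of CMP, erythroid and megakaryocyte markers among the Mll-AF9 CLP replicates (8.32 and 9.03, against 5.96 to 8.04 in the others) and the highest mast cell, basophil and eosinophil list (8.02 and 7.77, against 5.28 to 6.83). Their 3′ minus 5′ control difference was 4.32 and 4.93, and that of replicate 1 was 4.87. Over all alternatives, which included that control difference as a covariate, the Ccl3 difference in CLP ran from -2.06 to -0.28. None of them was called (lowest limma adjusted p = 0.131). The part of these marker lists in the Ccl3 and Ccl4 values was not tested. Cxcr6, the receptor of Cxcl16 on T and NK lineage cells, ran the other way, with 5.66, 6.80 and 5.63 in Mll-AF9 CLP replicates 2, 3 and 4 and 3.32 to 4.17 in the others. In wild-type CLP it was below background in 7 of 8 replicates, with 5.92 in replicate 7, and the genotype difference was 0.65 ± 0.48 (SE, limma adjusted p = 0.694). The mast cell, basophil and eosinophil list was 6.83, 8.02 and 7.77 in those 3 Mll-AF9 replicates (5.28 to 6.79 in the others) and 9.91 in wild-type replicate 7 (6.12 to 7.91 in the others). The CMP, erythroid and megakaryocyte list was 8.04, 8.32 and 9.03 in the 3 (5.96 to 7.59 in the other Mll-AF9 replicates). The mature T and NK cell list was 5.70, 5.67 and 5.58 in the 3 and 4.74 to 5.77 in the other Mll-AF9 replicates. In wild-type CLP it was 5.13 in replicate 7 and 4.12 to 5.07 in the others. Its mean was 5.51 in Mll-AF9 CLP and 4.70 in wild-type CLP. The part of these cells in the Cxcr6 values was not tested.

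In HSC, Ccr9 was 3.28, 3.10, 2.66, 2.78 and 2.87 in Mll-AF9 cells, all below background, against 6.63, 6.41, 5.06, 3.31 and 3.61 in wild-type cells. The groups did not overlap, and the difference was -2.07 ± 0.53 (SE, limma adjusted p = 0.288). Wild-type replicates 1 and 2, the highest, were the 2 of that group with high Y-linked genes (6.91 and 6.97, against 2.54 to 2.66 in the other 3). With the Y-linked level as a covariate the difference was -1.08 (limma adjusted p = 0.727). Averaged over the 5 probe sets of the gene, it was -0.46 (limma adjusted p = 0.554). The probe set used is of a kind that can also bind near-identical sequences. The CLP marker list was 5.09 to 6.20 in Mll-AF9 HSC and 5.75 to 6.23 in wild-type HSC, and the HSC list was 8.68 to 9.57 in Mll-AF9 HSC and 7.90 to 8.67 in wild-type HSC. The part of these lists in the HSC results was not tested.

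Ccl27a, a skin-associated ligand of Ccr10, was 5.17, 4.24, 4.95, 3.86 and 3.50 in Mll-AF9 HSC, against 5.85, 5.87, 5.18, 5.14 and 5.62 in wild-type HSC. The groups overlapped slightly at -1.19 ± 0.31 (SE, limma adjusted p = 0.294), and this probe set too can bind near-identical copies, so the source gene is uncertain. Cxcr4, the receptor that holds cells in marrow, had p-values far from the threshold in each population. Its differences and 95% intervals were -0.00 (-0.59 to 0.59) in GMP, -0.21 (-0.55 to 0.13) in CMP, -0.35 (-1.10 to 0.39) in CLP and 0.06 (-0.73 to 0.84) in HSC. Ccr2, the receptor for monocyte exit from marrow, differed by 0.03 (-0.36 to 0.43) in GMP, 0.05 (-0.25 to 0.34) in CMP, 0.38 (-0.06 to 0.82) in CLP and 0.35 (-0.18 to 0.87) in HSC. Its other 3 probe sets, all above background in Mll-AF9 GMP, gave larger differences there, 0.43 ± 0.21, 0.60 ± 0.22 and 0.60 ± 0.27 (SE, none called). In CLP the other 2 above background gave -0.09 and -0.23, so the sign of the Ccr2 difference in CLP depends on the probe set.

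**Figure D3:**
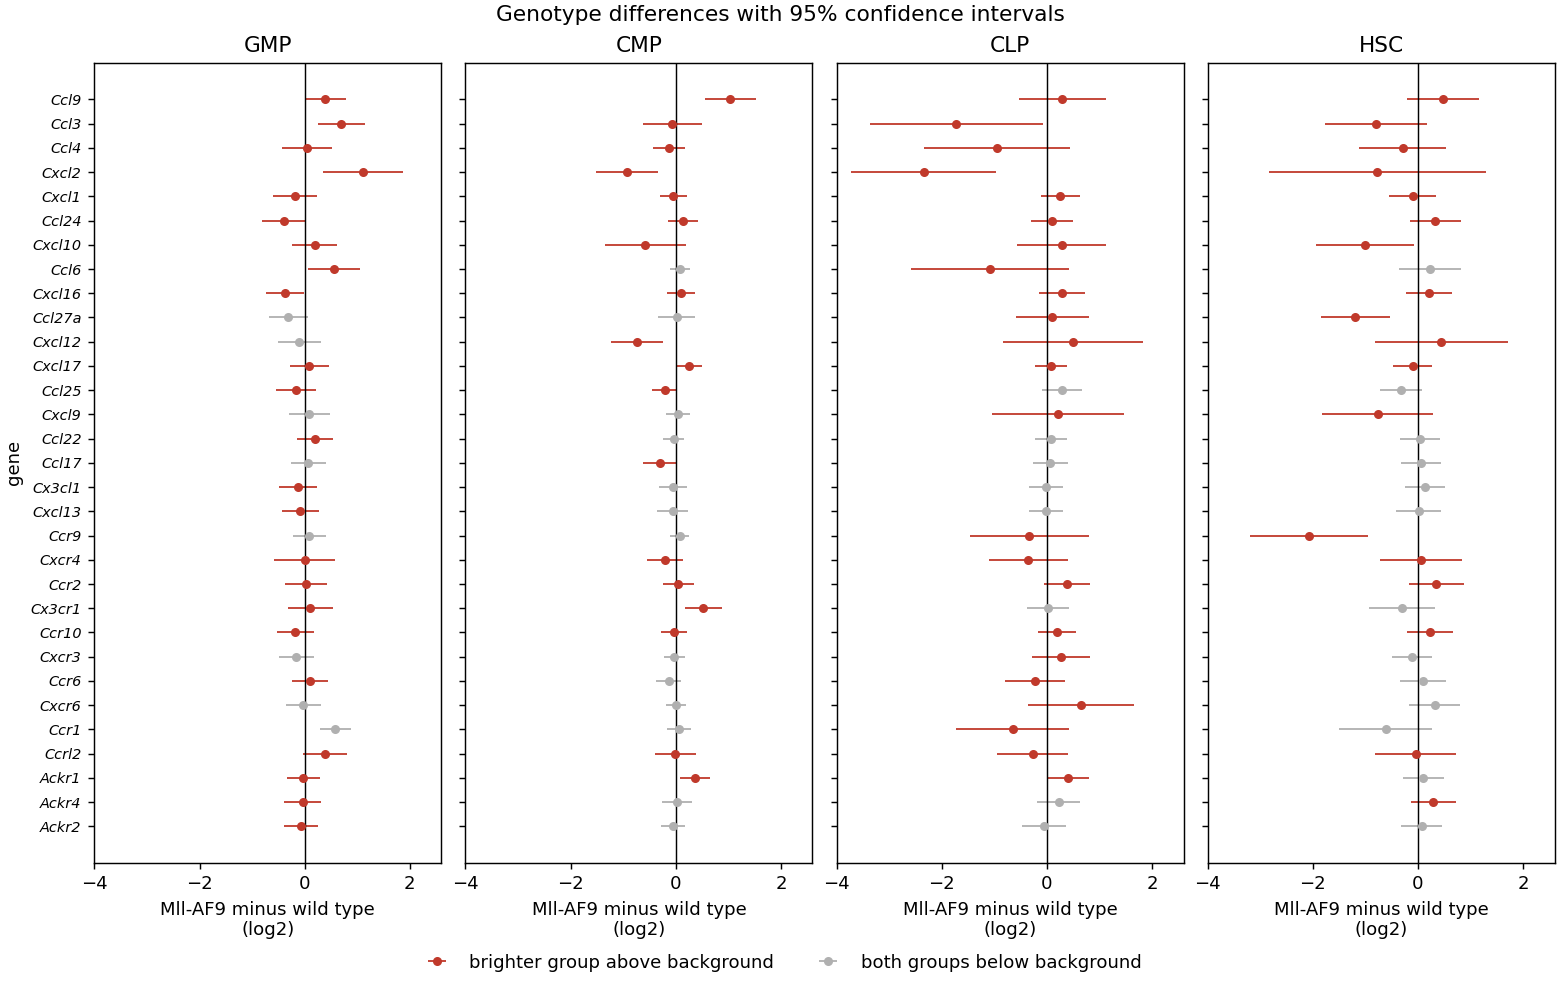
Log2 differences, Mll-AF9 minus wild type, with 95% confidence intervals, for the 31 members above background in at least 1 group, in GMP, CMP, CLP and HSC. Red points have at least 1 of the 2 group means above background, grey points have both below. The widest intervals are those of Ccl3, Ccl6 and Cxcl2 in CLP and of Cxcl2 and Cxcl12 in HSC, and Ccl9 in CMP and Ccr9 in HSC lie clear of 0 before adjustment.

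Whether the genotype difference itself varied between populations was tested in 6 contrasts of 2 populations each, and no member was called in any. Of all genes, 0.044% were called for GMP against HSC, 0.143% for CLP against HSC, 0.066% for GMP against CLP, 0.066% for CMP against CLP and 0% for the other 2 contrasts. At limma's unadjusted p under 0.05 there were 3 members for GMP against HSC, 4 for CMP against HSC, 7 for CLP against HSC, 1 for GMP against CMP, 4 for GMP against CLP and 1 for CMP against CLP. Over all genes that share was 7.88%, 2.91%, 9.60%, 1.84%, 10.1% and 4.21% in that order. Cxcl2, whose mean was higher in Mll-AF9 GMP and lower in Mll-AF9 CLP, had a contrast of GMP against CLP of 3.45 ± 1.09 (SE, limma adjusted p = 0.262). Ccr9 had a contrast of GMP against HSC of 2.15 ± 0.79 (SE, limma adjusted p = 0.461). The 2 genotype effects in each such contrast share no samples, but the contrasts share populations.

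The design also allows the wild-type populations to be compared with each other, in 6 pairs that share samples. The median of all genes was higher in GMP by 0.14 against HSC, 0.13 against CMP and 0.15 against CLP, so small differences in GMP are to be read against that shift. Against wild-type HSC, wild-type GMP had 18 members higher and 5 lower, 23 of 54 (42.6%), where 38.1% of all genes were called, 24.6% higher and 13.5% lower. The brighter group was above background for 13 of the 18 and all 5 of the lower ones. The members' median difference was 0.29. Wild-type CMP had 1 member higher and 5 lower than HSC (11.1%), where 22.4% of all genes were called, 11.7% higher and 10.7% lower, and the count of members was 10 (2 higher, 8 lower) with only those 2 groups in the fit. Wild-type CLP had 1 higher and none lower than HSC (1.85%), where all genes gave 0.319%, 0.264% higher and 0.055% lower. GMP against CMP gave 12 higher and 1 lower (24.1%), where all genes gave 31.8%, 20.3% higher and 11.5% lower, and the count of members was 8 without GMP replicate 1 and 25 (21 higher, 4 lower) with only those 2 groups in the fit. GMP against CLP gave 17 higher and 7 lower (44.4%), where all genes gave 43%, 28.3% higher and 14.7% lower. CMP against CLP gave 2 higher and 11 lower (24.1%), where all genes gave 23.7%, 11.9% higher and 11.8% lower. With all members and both directions counted, their share was near that of all genes for GMP against HSC, GMP against CLP and CMP against CLP. Among genes with the brighter group above background, GMP against HSC gave 13 members higher and 5 lower of 26 (49.9% of such genes called). GMP against CLP gave 12 and 6 of 28 (54.2%), and CMP against CLP 2 and 10 of 23 (37.0%). GMP against CMP gave 10 and 1 of 24 (42.5%), CMP against HSC 1 and 5 of 19 (35.7%) and CLP against HSC 1 and 0 of 21 (0.483%).

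Ccr9 was the member called between CLP and HSC. It had a lowest, median and highest value of 6.95, 8.17 and 10.02 in wild-type CLP, against 6.63, 6.41, 5.06, 3.31 and 3.61 in wild-type HSC. Every CLP value was above every HSC value, at a difference of 3.23 ± 0.49 (SE, 9.39-fold, limma adjusted p = 0.000118). The call was lost when the fit held those 2 groups alone (limma adjusted p = 0.129), at the same difference. In wild-type GMP it was 2.71, 3.05, 2.32, 2.46 and 2.69, and in wild-type CMP 2.96, 2.85, 2.73, 2.94 and 2.98, all below background. It was at least 13.7-fold lower in GMP than in CLP (-5.59 ± 0.49, SE, limma adjusted p = 2.33e-12) and at least 13.7-fold lower in CMP than in CLP (-5.35 ± 0.49, SE, limma adjusted p = 1.23e-11). The 1 other probe set of Ccr9 above background was also called, at -1.96 for GMP against CLP, -2.08 for CMP against CLP and 1.73 for CLP against HSC, but not for GMP against HSC (-0.23) or CMP against HSC (-0.35). Ccl25, the ligand of Ccr9 made mainly in thymus and gut, was 4.82, 5.08, 5.29, 4.75 and 5.19 in wild-type GMP, against a lowest, median and highest value of 3.43, 3.74 and 4.61 in wild-type CLP. It was at least 1.46-fold higher in GMP (1.17 ± 0.17, SE, limma adjusted p = 3.58e-07), and a second probe set near background differed by 0.46 (limma adjusted p = 0.073).

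Ccl3 and Ccl4 separated CLP and HSC from the myeloid progenitors. Ccl3 was 7.55, 7.35, 6.62, 7.56 and 7.40 in wild-type GMP, 6.68, 6.71, 5.29, 6.01 and 6.83 in wild-type CMP, and 11.17, 11.65, 9.46, 9.67 and 8.88 in wild-type HSC. Neither GMP nor CMP values overlapped those of HSC. It was 7.31-fold lower in GMP than in HSC (-2.87 ± 0.71, SE, limma adjusted p = 0.00131) and 14.5-fold lower in CMP than in HSC (-3.86 ± 0.71, SE, limma adjusted p = 5.29e-05). Against CLP it was 8.68-fold lower in GMP (-3.12 ± 0.64, SE, limma adjusted p = 0.000129) and 17.3-fold lower in CMP (-4.11 ± 0.64, SE, limma adjusted p = 2.7e-06).

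Ccl4 was 6.67, 6.45, 6.08, 6.69 and 6.33 in wild-type GMP, 5.80, 5.88, 5.37, 5.45 and 5.72 in wild-type CMP, and 9.15, 9.30, 7.32, 7.28 and 7.68 in wild-type HSC. Again the groups did not overlap, and the fold lower was 3.25 in GMP against HSC (-1.70 ± 0.59, SE, limma adjusted p = 0.0199) and 5.65 in CMP against HSC (-2.50 ± 0.59, SE, limma adjusted p = 0.00117). The GMP call was lost without HSC replicate 1 (limma adjusted p = 0.0683) or without HSC replicate 2 (limma adjusted p = 0.0702), the 2 highest. CLP and HSC were not distinguished for Ccl3 or Ccl4. Ccrl2, a decoy receptor that presents chemerin, was 6.23, 5.70, 5.29, 5.89 and 5.80 in wild-type GMP, against 7.42, 7.70, 6.17, 6.89 and 6.40 in wild-type HSC. It was 2.20-fold lower in GMP than in HSC (-1.14 ± 0.34, SE, limma adjusted p = 0.00727), although 1 HSC value lay inside the GMP range.

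Ccl9 was the ligand that most separated GMP from CMP. It was 11.11, 11.12, 10.42, 11.56 and 11.10 in wild-type GMP, against 7.80, 7.99, 6.70, 7.79 and 7.61 in wild-type CMP. The 2 groups lay apart by more than their own spread, an 11.2-fold difference (3.48 ± 0.39, SE, limma adjusted p = 1.7e-09). Wild-type HSC, with 8.37, 9.78, 9.09, 9.0 and 10.25, lay between them. Ccl9 was higher in GMP than in HSC (1.76 ± 0.39, SE, limma adjusted p = 0.000375) and lower in CMP than in HSC (-1.72 ± 0.39, SE, limma adjusted p = 0.000772). Ccl6 followed for GMP and CMP, with 4.66, 5.10, 5.22, 4.98 and 5.73 in wild-type GMP and 3.29, 3.41, 3.45, 3.45 and 3.49 in wild-type CMP, at least 1.60-fold higher in GMP (1.72 ± 0.61, SE, limma adjusted p = 0.0274). The call was lost without GMP replicate 5 (limma adjusted p = 0.0663) and on log2 of the intensity plus 16 (0.95, limma adjusted p = 0.149).

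Other ligands higher in GMP had smaller differences. Ccl24, an eosinophil attractant, was 6.56, 6.10, 5.93, 6.63 and 6.23 in wild-type GMP, against 5.42, 5.15, 5.24, 5.17 and 4.84 in wild-type CMP and 5.09, 5.12, 5.31, 5.34 and 4.94 in wild-type HSC. No value of GMP overlapped those of CMP or HSC, and it was 2.19-fold higher in GMP than in HSC (1.13 ± 0.20, SE, limma adjusted p = 1.34e-05). Cxcl1, a neutrophil attractant, was 7.35, 6.46, 6.89, 7.04 and 7.19 in wild-type GMP, against 5.99, 6.08, 5.67, 6.21 and 5.89 in wild-type HSC. On this probe set it was 2.02-fold higher in GMP (1.02 ± 0.18, SE, limma adjusted p = 1.09e-05), but a second probe set above background differed by 0.02 (limma adjusted p = 0.968), so the probe sets disagree. Cxcl16, the ligand of Cxcr6, was 5.89, 5.51, 5.43, 5.84 and 5.78 in wild-type GMP, against 5.32, 5.03, 5.04, 5.05 and 5.07 in wild-type CMP (0.59 ± 0.20, SE, limma adjusted p = 0.0195), a call lost without GMP replicate 1 (limma adjusted p = 0.0517). With group means nearer to background, Ackr1, Ccr6, Cx3cl1, Cx3cr1, Cxcl13, Cxcl17 and Ccr10 were called higher in GMP than in HSC, with differences of 0.40 to 0.74. Ccl22 was called too, but both its means were below background (4.40 in wild-type GMP and 4.04 in wild-type HSC). The Cx3cr1 call (0.60, limma adjusted p = 0.04997) was lost in 14 of 20 alternatives, and those of Ccr6, Cxcl17 and Ccr10 were lost in 1, 4 and 3 of 20. Cx3cr1 was 5.46, 4.53, 4.75, 5.20 and 5.33 in wild-type GMP, against 4.57, 4.39, 3.97, 4.28 and 4.32 in wild-type CMP. Cxcl13, the B-cell follicle ligand, was 4.78, 4.06, 4.37, 4.59 and 4.54 in wild-type GMP, against 4.09, 3.90, 3.72, 3.88 and 3.75 in wild-type CMP. Both pairs overlapped, with differences of 0.75 ± 0.25 for Cx3cr1 and 0.60 ± 0.18 for Cxcl13 (SE, limma adjusted p = 0.0171 and 0.00793), and the Cx3cr1 call was lost without GMP replicate 1 (limma adjusted p = 0.0603) or without CMP replicate 3 (limma adjusted p = 0.0538).

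Among receptors, Ccr2 was 6.31, 6.15, 5.51, 5.71 and 6.09 in wild-type GMP, against 5.08, 5.48, 5.08, 5.73 and 5.47 in wild-type HSC (0.58 ± 0.21, SE, limma adjusted p = 0.0277), and its other 3 probe sets above background gave log2 differences of 1.24, 1.56 and 1.28. On the probe set used the call was lost without any 1 of GMP replicates 1, 2 and 5 or HSC replicates 1 and 3 (limma adjusted p = 0.0587 to 0.0836). Cxcr4 was 6.72, 7.10, 7.47, 7.45 and 7.37 in wild-type GMP, against 6.23, 6.04, 6.47, 6.36 and 5.76 in wild-type CMP. The groups did not overlap (1.05 ± 0.38, SE, 2.07-fold, limma adjusted p = 0.0287), although the call was lost with only the second CMP run (limma adjusted p = 0.149) and without any 1 of GMP replicates 3, 4 and 5 or CMP replicates 2 and 5 (limma adjusted p = 0.0547 to 0.0736). The 2 runs of a wild-type CMP replicate differed for Cxcr4 by up to 1.08 on the log2 scale. Ccl17, a ligand of Ccr4, was the member called higher in CMP than in HSC, with 5.15, 4.30, 4.53, 4.49 and 4.48 in wild-type CMP, against 3.57, 3.55, 3.70, 3.52 and 4.18 in wild-type HSC (0.89 ± 0.17, SE, at least 1.09-fold, limma adjusted p = 0.000121). Ccl27a was 4.11, 4.21, 4.17, 3.77 and 3.86 in wild-type GMP and 4.10, 4.47, 4.07, 4.12 and 3.48 in wild-type CMP, against the wild-type HSC values above. It was at least 2.10-fold lower in both, with limma adjusted p = 0.000288 in GMP and 0.00057 in CMP. Cxcr3 and Ccrl2 were called lower in CMP than in CLP, at -0.64 and -0.84 on the log2 scale. Both calls were lost without wild-type CLP replicates 6 and 7 (limma adjusted p = 0.0963 for Cxcr3 and 0.103 for Ccrl2), and they were lost in 5 and 11 of 24 alternatives in all. Cxcr6 was called too, but both its means were below background (2.99 in wild-type CMP and 4.03 in wild-type CLP), and CLP replicate 7 was the 1 replicate above it.

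**Figure D4:**
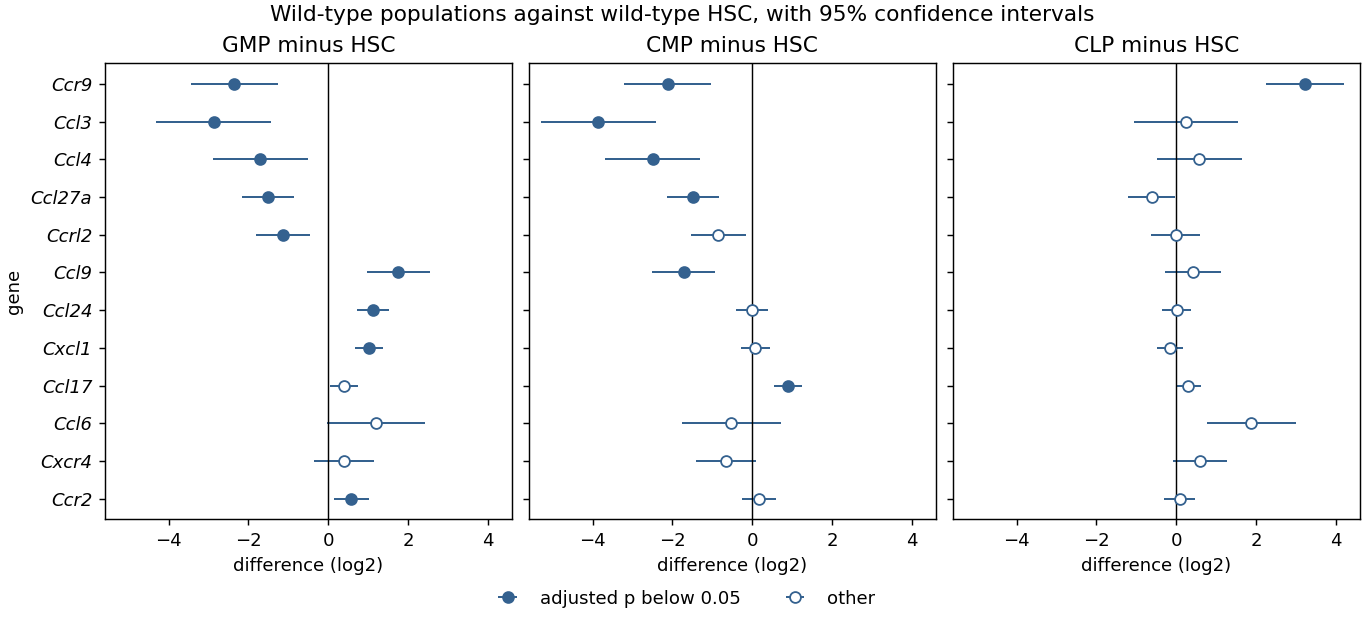
Differences on the log2 scale, with 95% confidence intervals, of wild-type GMP, CMP and CLP from wild-type HSC for 12 members. Filled points passed the threshold over all genes. Ccr9 is the filled point right of 0 in CLP, Ccl3 and Ccl4 lie left of 0 in GMP and CMP, and Ccl9 is right of 0 in GMP and left of it in CMP.

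Wild-type CLP replicates 6 and 7 stood apart from the other 6 for many members. They had 12.23 and 13.001 for Ccl3 (8.60 to 10.55 in the others), 10.95 and 11.88 for Ccl4 (7.32 to 8.67), 8.60 and 9.93 for Ccl6 (3.92 to 6.06), 7.09 and 7.66 for Cxcl12 (3.60 to 4.53) and 6.64 and 7.24 for Ccr1 (3.04 to 4.49). Ccr9 was 9.85 and 10.02 in them (6.95 to 8.48 in the others) and Cxcr4 8.79 and 8.84 (6.13 to 7.89). Without the pair, Ccr1 was no longer called lower in GMP than in CLP (-0.39, limma adjusted p = 0.305, against -1.16 ± 0.43, SE, limma adjusted p = 0.0278 with it) or lower in CMP than in CLP (-0.71, limma adjusted p = 0.0894, against -1.49 ± 0.43, SE, limma adjusted p = 0.00872). Ccl6 stayed called lower in CMP than in CLP at -1.26 (limma adjusted p = 0.000239), against -2.41 ± 0.55 (SE, limma adjusted p = 0.000774) with the pair. The counts were then 24 members for GMP against CLP, 10 for CMP against CLP and 1 for CLP against HSC, the last again Ccr9 (2.66, limma adjusted p = 0.00136).

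Marker lists moved in the same 2 replicates. The mast cell, basophil and eosinophil list was 7.91 in replicate 6 and 9.91 in replicate 7 (6.12 to 7.02 in the others), the monocyte and macrophage list 5.95 and 6.91 (4.72 to 5.35), and the mature neutrophil list 9.61 and 6.87 (3.91 to 6.67). The GMP list was 9.60 and 10.49 (7.17 to 8.97), and the CMP, erythroid and megakaryocyte list 7.95 and 7.89 (5.81 to 7.69). The stroma and endothelium list was 4.21 and 4.04 (3.87 to 4.50 in the others). It averaged 4.11 in wild-type CLP, below background, with 4 of 11 genes above it, so it can tell little about stromal cells there. The CLP list was 8.36 and 8.64, within the range of the others (6.53 to 8.63) but for the last. The part of such cells in the chemokine values was not tested.

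**Figure D5:**
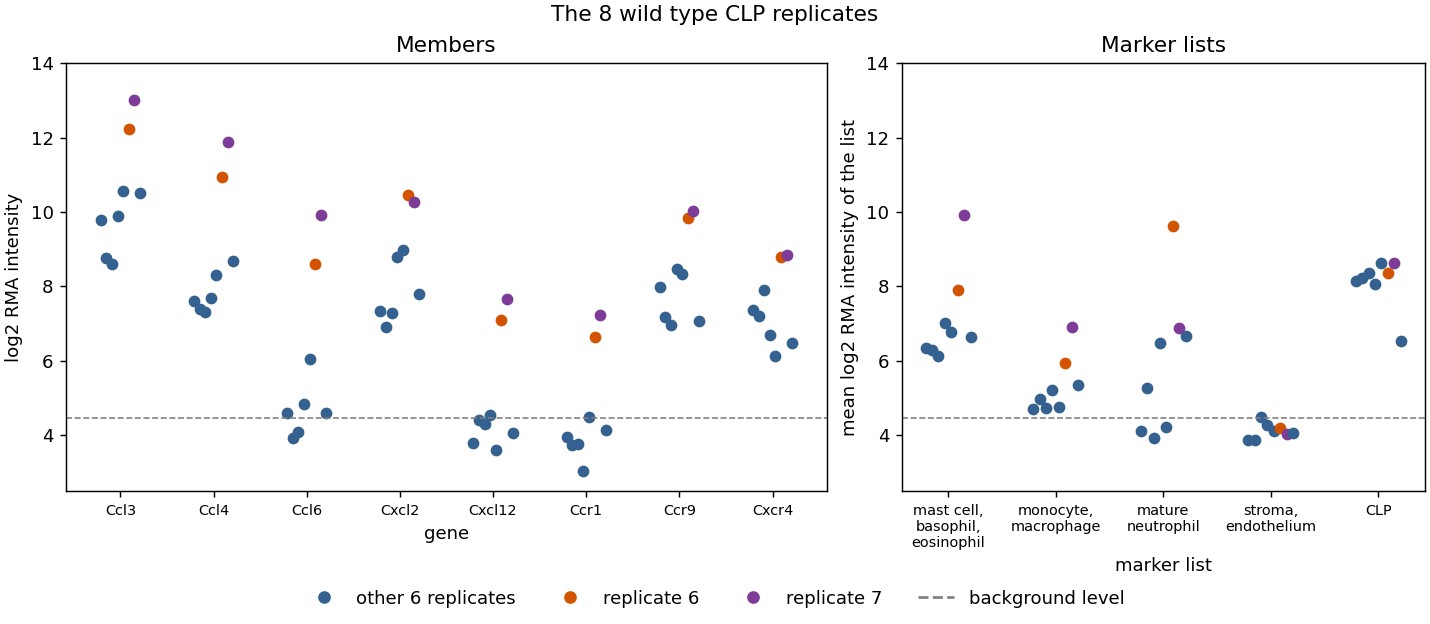
Left, log2 RMA intensity of 8 members in the 8 wild-type CLP replicates. Right, mean log2 RMA intensity of 5 marker lists in the same replicates, with the background level dashed. Replicates 6 (orange) and 7 (purple) are the 2 highest for all 8 members shown and for the mast cell and monocyte lists.

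Genes that act with chemokines gave genotype calls in GMP only, where 0.264% of all genes were called. Of 12 other chemoattractant receptors measured, 1 was higher in Mll-AF9 GMP, Gpr183, the oxysterol receptor that positions B cells and dendritic cells, at 5.57 in Mll-AF9 GMP and 4.29 in wild-type GMP (1.27 ± 0.21, SE, limma adjusted p = 0.0146). Of 4 chemokines and chemokine-like genes of other symbols (Pf4, Ppbp, Mif and Cklf), 1 was lower, the macrophage inhibitory cytokine Mif. Its mean was 10.34 in Mll-AF9 GMP and 11.01 in wild-type GMP (-0.67 ± 0.13, SE, limma adjusted p = 0.0386). Of 30 signalling genes, the G-protein subunit Gng11 was lower, at 6.47 in Mll-AF9 GMP and 7.73 in wild-type GMP (-1.26 ± 0.20, SE, limma adjusted p = 0.0146). None of 9 regulators of G-protein signalling and none of 9 genes of chemokine processing and binding was called in GMP, and no gene of the 5 lists was called by limma in CMP, CLP or HSC. The median genotype difference of the 30 signalling genes was 0.04 for GMP, -0.10 for CMP, 0.04 for CLP and -0.17 for HSC.

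Between wild-type populations the same lists gave more calls, where 38.1% of all genes were called for GMP against HSC and 22.4% for CMP against HSC. GMP against HSC gave 8 signalling genes higher and 8 lower of 30, among them Pik3r6, a regulatory subunit of the PI3-kinase that chemokine receptors engage, at 9.01 in wild-type GMP and 5.84 in wild-type HSC. Grk3, a kinase that switches such receptors off, was 5.17 in wild-type GMP and 8.21 in wild-type HSC. CMP against HSC gave none higher and 10 lower, among them the catalytic subunit Pik3cg at 6.50 in wild-type CMP and 8.30 in wild-type HSC. Of the 9 regulators of G-protein signalling, 3 were higher and 2 lower in GMP than in HSC. Rgs1, which dampens chemokine responses, was lower at 7.24 in wild-type GMP, against 11.56 in wild-type HSC (-4.32 ± 0.50, SE). Of 12 chemoattractant receptors, 2 were higher in GMP than in HSC, the leukotriene receptor Ltb4r1 at 7.15 in wild-type GMP and 5.36 in wild-type HSC, and the sphingosine phosphate receptor S1pr2 at 6.84 in wild-type GMP and 5.57 in wild-type HSC. Pf4, the platelet chemokine, was higher in CMP than in HSC, at 9.76 in wild-type CMP and 8.16 in wild-type HSC (1.60 ± 0.54, SE, limma adjusted p = 0.0263). Of 9 genes of chemokine processing and binding, 2 were higher and 4 lower in GMP than in HSC. Elane, a neutrophil protease that trims chemokines and is also in the GMP marker list, was 11.05 in wild-type GMP and 5.15 in wild-type HSC. Cd44 ran the other way, at 6.97 in wild-type GMP and 10.02 in wild-type HSC.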

How the data were processed

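Total RNA of sorted mouse cells was measured on 51 oligonucleotide arrays. The authors deposited linear intensity values of every probe set, made with RMA per the submitters' processing notes. The sources used here name no version or build. For this report log2 was taken, and the runs of 8 CMP replicates hybridised more than once were averaged, which left 43 replicates. Of 45101 probe sets, 34945 had 1 gene in the platform annotation, and symbols were updated through the GRCm38.p6 gene table. The brightest probe set stood for each of 18193 genes. Of 67 symbols that meet the rule in that table, 54 were measured, 20 of them by more than 1 probe set, and 13 were not analysed here. One gene of the naming pattern is not reported here.

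The 2 genotypes of a population were fitted alone with limma 3.58.1 (R 4.3.3), using lmFit and eBayes with an intensity trend. Wild-type populations and contrasts of genotype effects came from 1 model of 8 group means. Folds with a group below background are lower bounds, with that group raised to the background level. The fits were tested on simulated data. Members and lists were chosen with earlier results of these data known. Named values follow a fixed rule: the 10 members with the smallest genotype p above background, and up to 8 called members per wild-type comparison with the largest differences. Another 27 differences were described after their values were seen, among them Cxcl2 in GMP and CMP, Ccl3 and Cxcr6 in CLP, and Cxcr4 and Ccr2. Groups follow sample titles. Arrays carry no depth, and their number limits the precision. Same-numbered replicates of the 2 genotypes did not deviate together (correlations of -0.28 to 0.24), nor did those of wild-type populations in every pair of any comparison (-0.37 to 0.37), so the numbers were not taken to pair samples.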

Additional observations from a re-analysis of the deposited data

Results flagged for a closer look

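Of 147 groups of 4 to 10 replicates of members with the group mean above background, 14 had 1 replicate far from the rest by Dixon's test. That test flags about 1 group in 20 by chance where groups are not chosen on the tested values. Here a high replicate can itself lift the mean above background, so the 14 cannot be read against that rate. Mll-AF9 CLP replicate 3 was high for Cxcl1 (6.87), Cxcl16 (6.31), Ccr2 (6.59) and Ccr10 (5.56), and it also had the largest share of genes above background of all replicates (63.2%). Mll-AF9 CLP replicate 4 was high for the interferon-induced ligands Cxcl9 (8.52, next 4.66) and Cxcl10 (7.73, next 5.21), and wild-type HSC replicate 5 was high for Cxcl10 (7.70, next 5.46), with Cxcl9 at 6.78. Mll-AF9 HSC replicate 2 was high for Cxcl1 (6.23) and Ackr4 (5.28). Wild-type CMP replicate 1 was high for Ccl17 (5.15) and Cxcl16 (5.32). Wild-type GMP replicate 3 was low for Ccl3 (6.62), replicate 1 was high for Ackr4 (5.17) and replicate 4 was high for Ackr2 (4.87).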

How the results depend on the processing

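Counts of called members between genotypes stayed at 0 in GMP, CLP and HSC, and in all 6 contrasts of genotype effects, under every alternative run. In CMP the count became 1 (Ccl9, higher) with the first CMP run only (difference 1.11, limma adjusted p = 0.0423), with the 3′ minus 5′ control difference as a covariate (1.17, adjusted p = 0.0315) and with every CMP run and the replicate as a random effect (1.04, adjusted p = 0.00325). The last fit took runs of a replicate to be correlated by only 0.12, so repeat runs counted almost as separate samples in CMP. Leaving out 1 replicate gave 0 to 1 there, and over all alternatives the adjusted p of Ccl9 in CMP ran from 0.00325 to 1.00. With only the 2 groups compared in the fit, 10 members were called for CMP against HSC (2 higher, 8 lower), 0 for CLP against HSC, and 25 for GMP against CMP (21 higher, 4 lower). Leaving out 1 replicate gave 8 to 12 for GMP against CMP, with 8 without wild-type GMP replicate 1, and 1 for CLP against HSC each time. Alternatives were run for 76 differences of single members. Signs changed only for the small genotype differences of Cxcr4 and Ccr2, none of them called. For Cxcr4 in GMP it was 0.0084 on log2 of the intensity plus 16, 0.036 with the replicate block and -0.16 to 0.32 leaving out 1 replicate. For Cxcr4 in CLP it was 0.35 with the Y-linked level as a covariate and 0.11 without wild-type replicates 6 and 7. For Cxcr4 in HSC it was -0.44 with the Y-linked covariate and -0.29 to 0.29 leaving out 1 replicate. Ccr2 gave -0.080 to 0.12 in GMP leaving out 1 replicate. In CMP it was -0.12 over all probe sets, -0.0073 with the second run only, -0.059 with the replicate block and -0.059 to 0.099 leaving out 1 replicate. In CLP it was -0.036 over all probe sets and -0.097 with the Y-linked covariate, and in HSC -0.00074 over all probe sets.

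Replicate numbers were not taken to pair samples, since in no comparison did every same-numbered pair correlate above 0.1. Between wild-type GMP and CMP, and between GMP and HSC, 4 of 5 did correlate best with their own number, a hint from the data and not the design. The Y-linked level also ran alike by number in wild-type GMP and CMP. It was high in replicates 1 to 3 (6.17 to 6.47 in GMP, 6.92 to 7.33 in CMP) and low in 4 and 5 (2.40 to 2.56). The numbers of the other populations did not follow, with 2.54 in wild-type HSC replicate 3 and 6.83 in wild-type CLP replicate 5. With the numbers as a block there were 0 members in the 4 genotype comparisons, and 22 for GMP against HSC, 6 for CMP against HSC, 1 for CLP against HSC, 13 for GMP against CMP, 21 for GMP against CLP and 11 for CMP against CLP. Signal near background limits what the arrays show for 23 of the 54 members, and differences of the others are compressed when 1 group is near 4.46.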

Other observations

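Cxcl9 and Cxcl10, ligands of Cxcr3 that interferon induces, were high together in some replicates and parted in others, a pattern picked after their values were seen. Mll-AF9 CLP replicate 4 had 8.52 for Cxcl9 and 7.73 for Cxcl10, and wild-type HSC replicate 5 had 6.78 and 7.70. They parted in wild-type CLP replicate 3 (5.57 for Cxcl9 and 4.33 for Cxcl10) and in wild-type CMP replicate 5 (3.95 and 6.63), among others. Cxcl11, the third ligand of Cxcr3, stood at 4.92 in wild-type HSC replicate 5, above background there, and at 3.88 in Mll-AF9 CLP replicate 4. Cxcr3 itself was above background in CLP of both genotypes, with 4.89 ± 0.52 in Mll-AF9 CLP and 4.61 ± 0.59 in wild-type CLP (SD, n = 7 and 8).

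Cxcl12 was high in single replicates of the lymphoid and stem cell samples. It was 7.72 in Mll-AF9 CLP replicate 3 and 6.62 and 6.94 in Mll-AF9 HSC replicates 1 and 2, against 5.39 at most in wild-type HSC. The other 3 Mll-AF9 HSC replicates had 4.96, 3.52 and 3.51. The stroma and endothelium list, without Cxcl12, was 4.18 and 4.22 in Mll-AF9 HSC replicates 1 and 2, and 4.33, 4.05 and 4.01 in the other 3. All these list values lay below background, where the list can tell little.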
